A study of Mus musculus with 15 samples.

Results

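The 10 genes described here encode transcription factors of the intestinal epithelium: Cdx1, Cdx2, Hnf4a and Gata6 for intestinal identity, Elf3, Klf4 and Klf5 for proliferation and differentiation along the crypt, and Atoh1, Hes1 and Sox9 for secretory, absorptive and crypt base fate. They were taken by the gene name printed for each probe on the array, which gave 17 of 41174 probes and 10 of 27389 named genes. All 10 genes passed the filter on dim probes, with 15 of the 17 probes. Each gene is described by its brightest probe, and 6 genes had 1 probe.

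The data were 15 dual-colour arrays of 8 female Swiss Webster mice, 2 in each of 4 groups: untreated inflamed, treated inflamed, untreated polypoid and treated polypoid. Every mouse, the untreated ones included, had received the carcinogen azoxymethane (AOM, 7.4 mg/kg) and 3 cycles of 4% dextran sulfate sodium (DSS, 7 days, then 21 days of water), which inflames the colon. The mice were 7 weeks old at entry, 9 weeks at the first DSS cycle and 18 weeks when killed, and no group without AOM and DSS was analysed here. Treated mice received 5-aminosalicylic acid (5-ASA, or mesalamine, which is given against intestinal inflammation in colitis) at 75 mg/kg, and the others the vehicle. Inflamed or polypoid areas were laser-captured from 5 µm frozen sections, and their RNA was amplified in 2 rounds. The study asked what 5-ASA does to gene expression in this model of colitis-associated carcinogenesis.

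A value is the log2 of sample over a universal mouse reference RNA that shared the array, with 1 value for each mouse. A difference of 1 on this scale is a 2-fold change. Values of different genes come from different probes and were not ranked against each other. A gene was called when limma's adjusted p (Benjamini-Hochberg over 21301 genes) was under 0.05, with errors given as the standard error (SE) of the fit. Captured areas hold several cell types, so fewer epithelial cells and less RNA per epithelial cell cannot be told apart.

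The intestinal epithelium is renewed from stem cells at the crypt base, and its cells differentiate as they move towards the surface. CDX1, CDX2 and HNF4A bind and activate genes of mature enterocytes and colonocytes. Notch signalling induces HES1, which represses ATOH1, the factor that commits progenitors to the secretory lineages. SOX9 is produced in crypt base and progenitor cells downstream of Wnt signalling, whereas KLF4 is found in differentiated cells, where it restrains the cell cycle, and KLF5 in dividing crypt cells.

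Sequence upstream of the start was on hand in RefSeq's promoter table (GRCm38.p6) for 5 of the 10 genes, in 6 windows of 250 bases. The windows of Klf4, Cdx2 and Hnf4a are shown because the intervals of these genes' tissue differences lay below 0. They are read 5′ to 3′ on the gene's own strand, ending at the base before the start, and capitals mark a match on either strand to 1 of the motifs named after them. Klf4 lies at chr4:55532476-55532725 on the minus strand, Cdx2 at chr5:147307250-147307499 on the minus strand and the first of 2 Hnf4a starts at chr2:163506607-163506856 on the plus strand.
Klf4: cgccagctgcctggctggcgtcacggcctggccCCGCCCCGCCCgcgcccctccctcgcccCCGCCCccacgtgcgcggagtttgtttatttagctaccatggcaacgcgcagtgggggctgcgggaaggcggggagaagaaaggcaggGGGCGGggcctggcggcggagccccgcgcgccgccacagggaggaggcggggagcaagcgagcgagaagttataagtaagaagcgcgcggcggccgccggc
Cdx2: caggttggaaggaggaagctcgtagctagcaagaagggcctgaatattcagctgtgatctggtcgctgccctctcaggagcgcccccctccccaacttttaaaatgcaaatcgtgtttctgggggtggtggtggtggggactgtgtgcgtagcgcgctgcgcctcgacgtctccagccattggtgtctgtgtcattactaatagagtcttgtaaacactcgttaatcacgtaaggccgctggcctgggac
Hnf4a: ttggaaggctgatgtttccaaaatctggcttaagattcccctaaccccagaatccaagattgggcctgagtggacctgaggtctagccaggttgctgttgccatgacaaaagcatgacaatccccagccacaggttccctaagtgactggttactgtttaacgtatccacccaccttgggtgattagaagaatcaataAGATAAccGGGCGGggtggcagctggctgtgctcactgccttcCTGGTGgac

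The motifs searched on both strands were TTTATG for CDX factors, GGGCGG for KLF and SP factors (the GC box), CAAAGTCCA for HNF4, AGATAA for GATA factors, ATCAAAG for TCF/LEF factors, CACNAG for HES factors (the N box) and ACAATG for SOX factors. The Klf4 window held the GC box 4 times, beginning 217, 212, 189 and 101 bases before the start, with the first 2 overlapping. Of 32851 windows of this length in the table, 32.7% held a GC box, and the GC content was 74.0% in the Klf4 window against a median of 52.4%. The first Hnf4a window held GATA, GC box and N box matches 52, 44 and 9 bases before the start, which 9.99%, 32.7% and 36.7% of windows also held. The second Hnf4a start had an N box 118 bases before it and Elf3 had one 84 bases before its start. Atoh1 had a GC box at 120 and a TCF/LEF match at 148 bases, the latter found in 3.21% of windows. The Cdx2 window held none of the 7. CDX, SOX and HNF4 motifs, present in 10.8%, 10.7% and 0.384% of windows, were in none of the 6 windows.

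In polypoid against inflamed tissue over both arms (4 mice each), Sox9 rose and Klf4 and Cdx1 fell, and the other 7 genes did not pass. These were 3 of 10 genes, where 5.97% of all genes tested passed (3.98% higher, 1.99% lower). The median difference of the 10 was -0.31 against -0.02 over all genes. In 5 of the 10 the unadjusted p was under 0.05, against 23.3% of all genes. The 4 polypoid and 4 inflamed values did not overlap in these same 3 genes, nor in 16.3% of all genes. Within each arm, 5 genes lay apart in the same direction in both arms (Cdx1, Cdx2, Klf4 and Atoh1 lower, Sox9 higher), against 21.8% of genes.

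**Figure D1:**
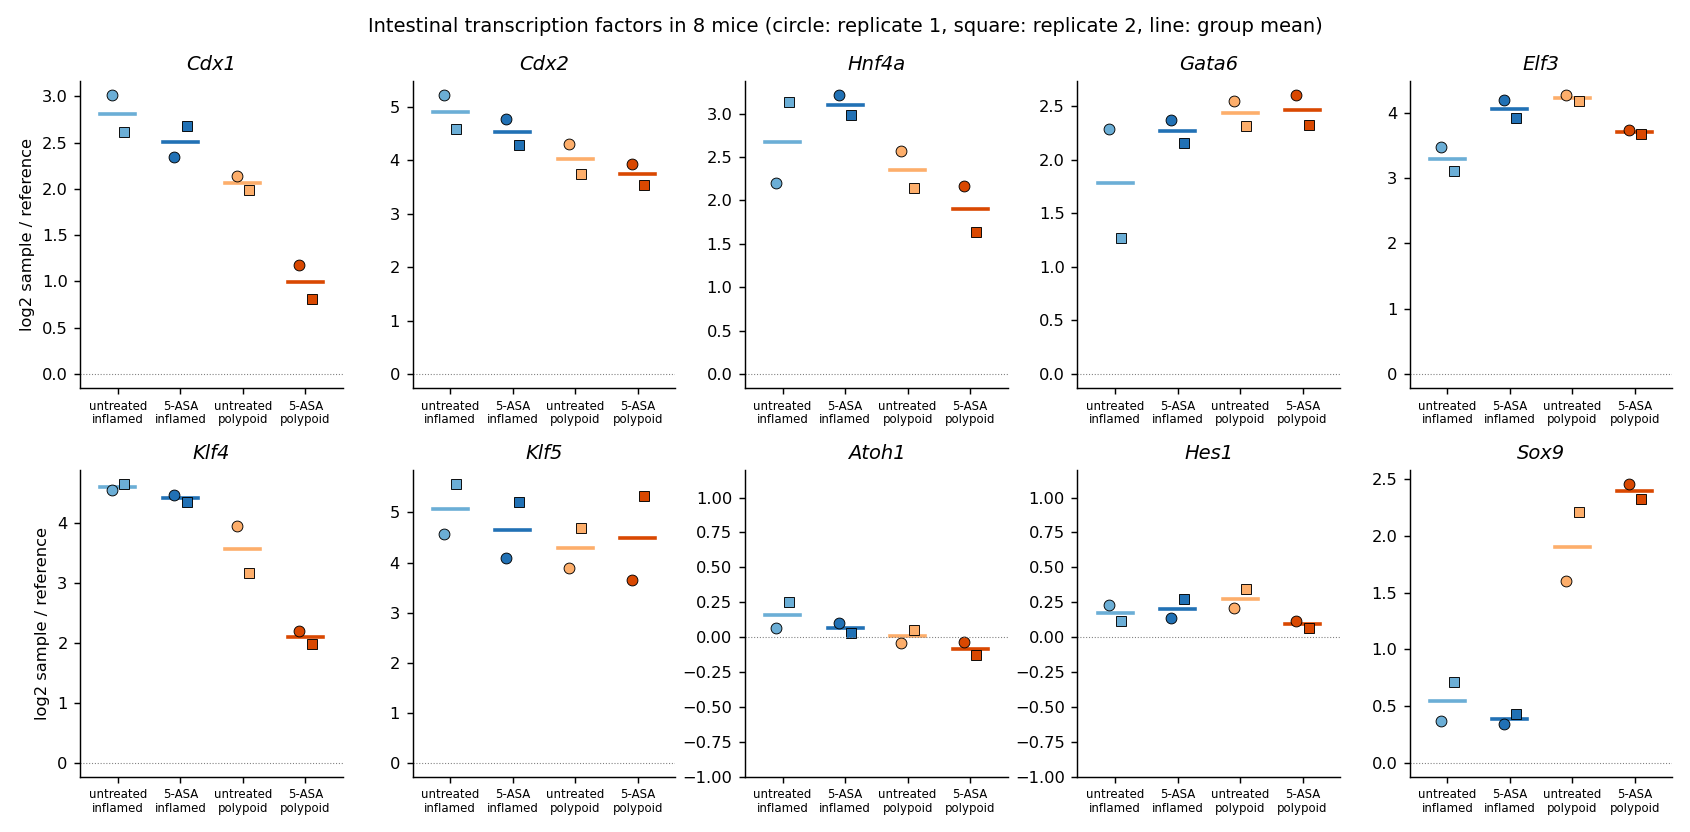
Values of the 10 transcription factors in each of the 8 mice (y axis: log2 sample over reference, a separate scale for each gene; x axis: the 4 groups; circles, replicate 1; squares, replicate 2; lines, group means). Sox9 lies between 0.34 and 0.71 in inflamed and between 1.60 and 2.46 in polypoid tissue, while Cdx1 and Klf4 are lower in every polypoid mouse than in any inflamed one; the inflamed Klf4 values are limited by saturation.

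CDX1, a homeobox factor of the hindgut and colonic epithelium, had values of 3.02 and 2.62 in untreated inflamed, 2.35 and 2.68 in treated inflamed, 2.14 and 1.99 in untreated polypoid and 1.18 and 0.81 in treated polypoid tissue. All 4 polypoid mice were below all 4 inflamed ones, and the treated polypoid mice were lowest. Cdx1 fell 2.20-fold in polypoid tissue (-1.14 ± 0.15 SE, 95% interval -1.52 to -0.76, limma adjusted p = 0.0174). By arm, the difference was -0.76 ± 0.22 in untreated mice (adjusted p = 0.260) and -1.52 ± 0.22 in treated mice, where it passed (adjusted p = 0.0291). In the order of group means, the 2 inflamed groups overlapped and each later step was a gap. The pooled call rested on several animals. With treated inflamed replicate 1 left out its adjusted p was 0.0696, and with replicate 2 of that group left out it was 0.0598. Leaving out replicate 2 of the untreated or of the treated polypoid mice gave 0.0504 or 0.0571. It was 0.180 with the scanner software's processed signals and 0.0819 with the spread of arrays made equal. The probe was among the dimmer ones of the 10, at 142.6 to 656.9 intensity units in the sample channel.

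CDX2, the homeobox factor that sets intestinal identity, stood at 5.22 and 4.58 in untreated inflamed, 4.78 and 4.30 in treated inflamed, 4.30 and 3.74 in untreated polypoid and 3.94 and 3.55 in treated polypoid tissue. The tissues lay apart within each arm, but across the arms untreated polypoid replicate 1 slightly exceeded treated inflamed replicate 2. The difference of -0.84 ± 0.23 (95% interval -1.39 to -0.28) did not pass (adjusted p = 0.0910). It was -0.88 in untreated and -0.80 in treated mice, and on the Cy3 arrays alone it passed (-0.74, adjusted p = 0.0401). Neighbouring groups overlapped at each of the 3 steps in the order of means. The dye-swapped arrays of a mouse differed by a median of 0.44 for this probe, the widest such gap among the 10 genes.

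HNF4A, a nuclear receptor that activates genes of lipid handling and absorption in enterocytes, showed 2.20 and 3.14 in untreated inflamed, 3.22 and 2.98 in treated inflamed, 2.57 and 2.14 in untreated polypoid and 2.16 and 1.64 in treated polypoid tissue. Untreated inflamed replicate 1 was low, within the polypoid range, and the tissues lay apart only in treated mice. Polypoid minus inflamed was -0.76 ± 0.25 (95% interval -1.37 to -0.14, adjusted p = 0.143), with -0.31 ± 0.36 in untreated and -1.20 ± 0.36 in treated mice (adjusted p = 0.742 and 0.139). With the scan session as a block the difference was -1.76. A second, dimmer Hnf4a probe stayed between 0.13 and 0.57 in all mice and differed by -0.18 ± 0.11.

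GATA6, a zinc finger factor of the proliferating epithelium, was at 2.28 and 1.27 in untreated inflamed, 2.37 and 2.16 in treated inflamed, 2.55 and 2.32 in untreated polypoid and 2.61 and 2.32 in treated polypoid tissue. Untreated inflamed replicate 2 stood apart below the other 7 mice, which spanned 2.16 to 2.61. The tissue difference was 0.43 ± 0.23 and did not pass (95% interval -0.15 to 0.998, adjusted p = 0.344). All neighbouring groups in the order of means overlapped. The second Gata6 probe gave 0.12 ± 0.12, and 1 more was well above background on 1 of the 15 arrays.

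ELF3, an ETS factor of differentiating epithelium, had values of 3.48 and 3.11 in untreated inflamed, 4.19 and 3.92 in treated inflamed, 4.27 and 4.17 in untreated polypoid and 3.73 and 3.68 in treated polypoid tissue. The untreated inflamed mice were lowest, and the untreated polypoid and treated inflamed mice overlapped at the top. Over both arms the tissues differed by 0.29 ± 0.12 (95% interval -0.02 to 0.59, adjusted p = 0.236), but the arms pointed opposite ways. Polypoid minus inflamed was 0.93 ± 0.18 in untreated mice (95% interval 0.50 to 1.36, adjusted p = 0.143) and -0.35 ± 0.18 in treated mice (adjusted p = 0.359). With the processed signals the pooled difference was -0.02.

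KLF4 marks differentiated surface and goblet cells. Its values were 4.54 and 4.65 in untreated inflamed, 4.46 and 4.35 in treated inflamed, 3.95 and 3.17 in untreated polypoid and 2.20 and 1.98 in treated polypoid tissue. All polypoid mice were below all inflamed ones, and the treated polypoid mice were lowest. Its spot was saturated in the sample channel on 5 of 7 inflamed arrays, including all 3 of treated inflamed tissue, and on 0 of 8 polypoid arrays, so the inflamed values are lower bounds with no order among them. Klf4 fell in polypoid tissue by 1.68 ± 0.19 on the log2 scale as measured (95% interval -2.13 to -1.23, adjusted p = 0.0114). Its SD was 0.08 in untreated and 0.07 in treated inflamed tissue, against 0.55 and 0.15 in untreated and treated polypoid tissue. The ceiling can narrow the inflamed spread, so saturation also limits the Klf4 SE, intervals and p-values. In treated mice the measured difference was -2.31 ± 0.26 (adjusted p = 0.0192). There the sample channel read 65261 to 65283 units on the treated inflamed arrays, all saturated, against 9395 to 14140 on the treated polypoid arrays, so the size of the difference is limited by the scanner's ceiling. In untreated mice the difference was -1.04 ± 0.26 and did not pass (adjusted p = 0.221). The authors' deposited table gives no Klf4 value for those same 5 saturated arrays. On its remaining arrays, untreated polypoid minus inflamed was -1.09. The inflamed arrays left there read 64772 and 63632 units, close to the ceiling, so this value is limited too.

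KLF5, a factor of dividing crypt cells, varied more between the mice of a group than 98% of genes. It stood at 4.56 and 5.58 in untreated inflamed, 4.09 and 5.20 in treated inflamed, 3.90 and 4.68 in untreated polypoid and 3.66 and 5.33 in treated polypoid tissue. In every group the mouse scanned in session 3 or 4 was higher than its group mate, scanned in session 1 or 2. Within a group, scan session and animal cannot be told apart. All 4 groups overlapped. The tissue difference was -0.47 ± 0.49 (95% interval -1.65 to 0.72, adjusted p = 0.622), an interval that leaves room for changes over 2-fold downwards. The difference turned to 0.14 when the spread of arrays was made equal. The second Klf5 probe (0.38 ± 0.41) ordered the mice differently, with high values of 2.57 in treated inflamed replicate 1 and 2.29 and 2.05 in untreated polypoid mice, and 0.05 to 0.60 in the rest.

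ATOH1, the master factor of secretory cells, was read close to the reference level in all mice: 0.06 and 0.25 in untreated inflamed, 0.10 and 0.03 in treated inflamed, -0.04 and 0.05 in untreated polypoid and -0.04 and -0.13 in treated polypoid tissue. The tissues did not overlap within either arm, yet their difference was only -0.15 ± 0.09 (95% interval -0.38 to 0.08, adjusted p = 0.399). The probe was dim, at a median of 212.3 intensity units, 3.98 times its local background.

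HES1, the repressor through which Notch blocks secretory fate, was also near the reference, at 0.23 and 0.11 in untreated inflamed, 0.14 and 0.27 in treated inflamed, 0.21 and 0.34 in untreated polypoid and 0.12 and 0.07 in treated polypoid tissue. The groups that neighbour each other in the order of means overlapped. The tissues differed by 0.00 ± 0.09 (95% interval -0.23 to 0.22, adjusted p = 0.988), a sign that changed with several settings. Its probe was dimmer still, with a median of 145.6 units, 3.06 times the background. At that brightness log ratios are pulled towards 0 by the offset of 50, so the intervals of Atoh1 and Hes1 do not bound the change in their RNA.

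SOX9, an HMG-box factor of crypt base and progenitor cells, showed 0.37 and 0.71 in untreated inflamed, 0.34 and 0.43 in treated inflamed, 1.60 and 2.21 in untreated polypoid and 2.46 and 2.33 in treated polypoid tissue. Every polypoid mouse was well above every inflamed mouse, and the lowest polypoid value belonged to an untreated mouse. Sox9 rose 3.22-fold in polypoid tissue (1.69 ± 0.17 SE, 95% interval 1.29 to 2.09, limma adjusted p = 0.00845). The rise was 2.01 ± 0.23 in treated mice, where it passed (adjusted p = 0.0205), and the difference was 1.36 ± 0.23 in untreated mice, where it did not (adjusted p = 0.116).

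The 3 probes of Sox9 did not all show the rise. The second gave 0.28 and -0.47 in untreated inflamed, 0.23 and 0.19 in treated inflamed, 1.35 and 2.04 in untreated polypoid and 1.34 and 0.87 in treated polypoid tissue, and it rose by 1.34 ± 0.24 (adjusted p = 0.0363 over 30166 probes). The last stayed between -0.22 and 0.04 in all mice and differed by 0.01 ± 0.10. It was the dimmest, at 2.41 times its background, against 120.4 and 13.5 times for the other two. All 3 carry the same RefSeq accession on the array, and where each lies in the transcript was not analysed here.

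**Figure D2:**
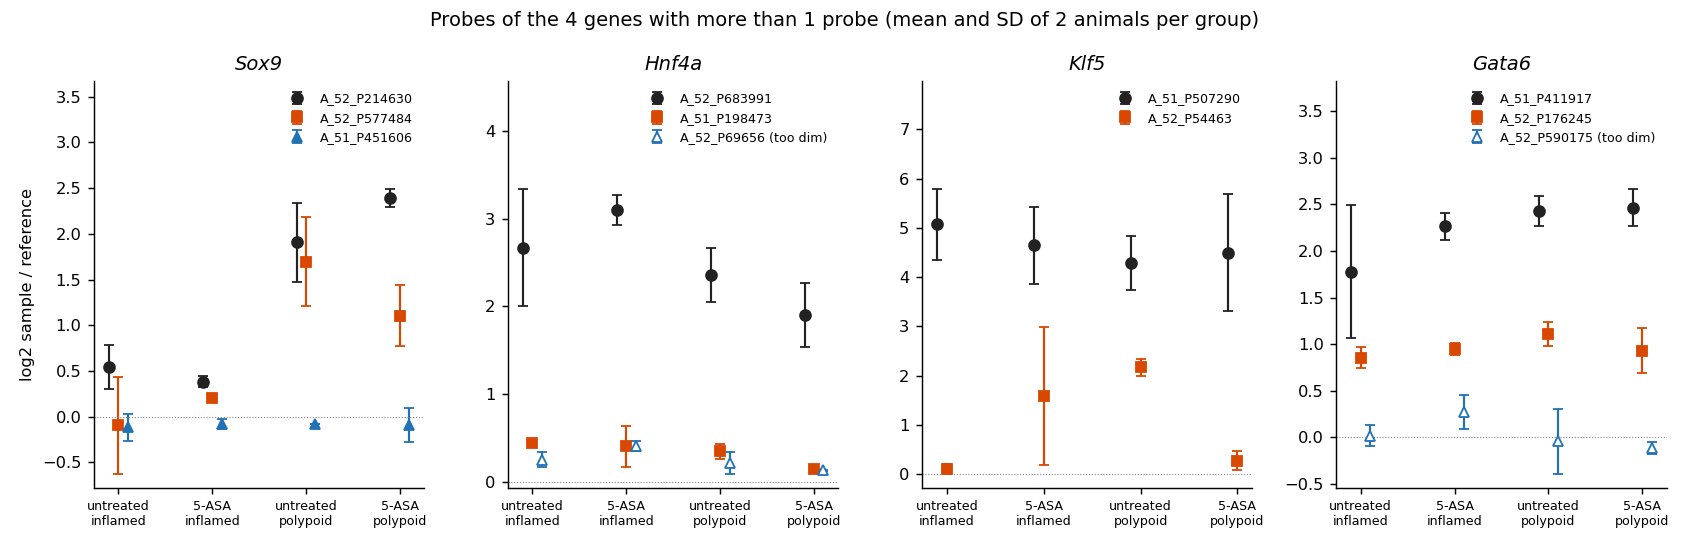
Group means of each probe for the 4 genes with more than 1 probe (y axis: log2 sample over reference; x axis: the 4 groups; bars: SD of 2 mice; open triangles: probes that failed the brightness filter). Of the Sox9 probes, 2 are higher in polypoid tissue and the faintest stays between -0.22 and 0.04 in all mice, while the Klf5 probes order the groups differently.

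The arm-specific tests gave 0 called genes among the 10 in untreated mice, where 0.164% of all genes passed in limma, with 5 at an unadjusted p under 0.05 (12.6% of all genes). In treated mice 3 of the 10 passed, Cdx1, Klf4 and Sox9, against 3.07% of genes, and 5 had an unadjusted p under 0.05 (19.2% of genes). That does not show that the arms differ: the test of that difference is the tissue by treatment interaction, which no gene passed. The tissues did not overlap for 7 of the 10 genes in untreated mice and for 8 in treated mice, against 41.8% and 55.2% of all genes. The 3 calls in treated mice became 0 when either inflamed or either polypoid mouse of that arm was left out. In the pooled comparison, none of the 10 passed without treated inflamed replicate 1, where Klf4 had an adjusted p of 0.0696 and Sox9 of 0.0573, while 139 genes in all passed.

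**Figure D3:**
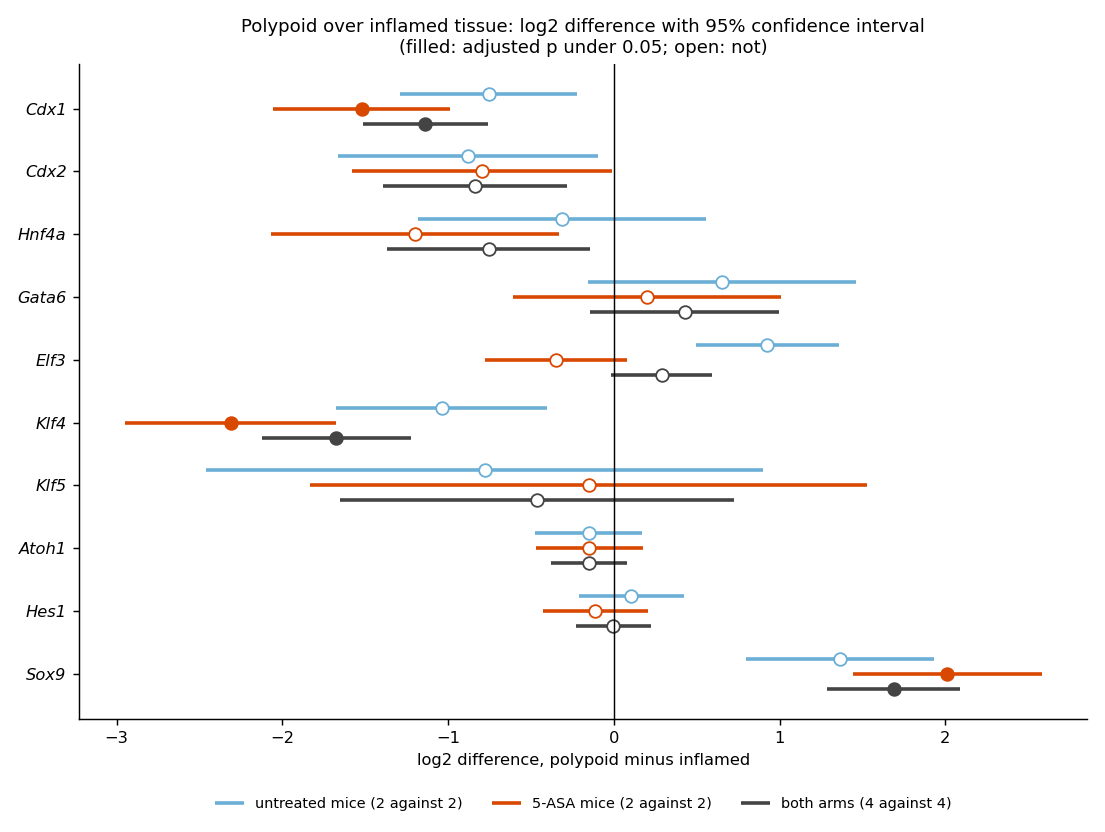
Polypoid minus inflamed differences of the 10 genes (x axis: log2 difference; lines: 95% confidence intervals; blue, untreated mice; orange, treated mice; black, both arms; filled points have an adjusted p under 0.05). Sox9 lies to the right of 0 and Klf4 and Cdx1 to the left in both arms, and Elf3 lies on opposite sides, at 0.93 in untreated and -0.35 in treated mice.

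The arrays had been scanned in 4 sessions, and only session 3 held both tissues. Treated inflamed mice were scanned in sessions 1 and 4, and treated polypoid mice in sessions 2 and 3. For the 3 calls in treated mice, tissue and scan session therefore cannot be told apart. In session 3, 1 polypoid mouse was untreated and 1 treated, and the 1 inflamed mouse was untreated, so their difference mixes tissue with treatment. The mean of the 2 polypoid mice minus the inflamed mouse was 1.55 for Sox9, -2.08 for Klf4 and -1.22 for Cdx1. The untreated polypoid mouse minus the inflamed mouse gave 1.49, -1.48 and -0.63. The mean of the 2 polypoid mice minus the inflamed mouse was -0.94 for Cdx2, -1.25 for Hnf4a, 0.81 for Elf3 and 1.05 for Gata6. That inflamed mouse, untreated inflamed replicate 2, had the lowest Elf3 and Gata6 values of all 8 mice (3.11 and 1.27). The session 3 values of these genes therefore rest on 1 low mouse. Over both arms the Elf3 and Gata6 differences were 0.29 and 0.43, and neither passed. With the session as a block, which left 1 residual degree of freedom, the differences were 1.57 for Sox9, -2.03 for Klf4 and -0.88 for Cdx1 (adjusted p = 0.336, 0.332 and 0.336), and no gene on the array passed.

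Markers of other cells that may lie within a captured area were read in the same way. Of 10 epithelial markers, 0 passed in limma over both arms, with 3 at an unadjusted p under 0.05. Their mean value was 3.24 to 3.71 in inflamed and 3.02 to 3.75 in polypoid mice. The arms differed, again with 0 called in each. The median marker difference was 0.19 in untreated mice (5 higher, 5 lower) and -0.49 in treated mice (1 higher, 9 lower). In treated mice the marker means did not overlap, at 3.70 and 3.71 in inflamed and 3.29 and 3.02 in polypoid tissue. Of these 10, 4 were saturated on some arrays, Krt8 and Lgals4 on all 15, and cannot show their full change. The other 6 had means of 3.74 to 4.60 in inflamed and 3.63 to 4.33 in polypoid mice, with 0 called over both arms. Of 10 smooth muscle markers, 4 fell, with means of 1.06 to 2.81 in inflamed and 0.45 to 0.92 in polypoid mice. Of 10 neutrophil markers 8 had a kept probe (all but Ly6g and Camp), with means of -0.06 to 0.34 in inflamed and 1.81 to 2.91 in polypoid mice. S100a9, well above background on all 15 arrays, rose by 4.32 ± 0.19 (adjusted p = 0.00245). The other 7 were not well above background on 1 to 7 of the 7 inflamed arrays, so that most were kept through polypoid tissue, and the count of 6 that passed is not evidence about the list. Of 8 plasma cell markers, Sdc1 rose and Mzb1 fell (0.65 to 2.40 in polypoid, 1.61 to 2.57 in inflamed mice), and 0 passed in 6 of the 8 cases with 1 animal left out. In the leukocyte, fibroblast, endothelium and macrophage lists 0 of 10, 10, 7 and 10 markers passed, with 1, 4, 0 and 1 at an unadjusted p under 0.05. Of 9 markers of enteric neurons and glia, Stmn2 fell. The part of these markers in the differences of the 10 factors was not tested. Without treated inflamed replicate 1 the smooth muscle count was 0, and the other animals, left out in turn, gave 0 to 6.

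For 5-ASA against untreated mice, no gene on the array passed in limma in either tissue or in both together (0 of 21301, the smallest adjusted p being 0.770 in both tissues, 0.975 in inflamed and 0.435 in polypoid tissue). The 10 factors therefore gave 0 calls, which is the 0% found for all genes. At an unadjusted p under 0.05 there were 2 of 10 in both tissues together (Klf4 and Cdx1), 1 in inflamed (Elf3) and 3 in polypoid tissue (Klf4, Cdx1 and Elf3), against 6.35%, 4.33% and 7.75% of all genes. Treated and untreated values did not overlap for 0, 2 and 5 of the 10, against 1.75%, 29.4% and 40.5% of genes. The 2 in inflamed tissue were Elf3 and Klf4, and for Klf4 that order rests on saturated spots.

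By the brightest probe of each gene, the largest measured treatment differences among the 10 were in polypoid tissue, where both treated mice had less Klf4 and Cdx1 than both untreated ones. Klf4 differed by -1.47 ± 0.26 (95% interval -2.10 to -0.83, unadjusted p = 0.00128, adjusted p = 0.446). No polypoid array was flagged as saturated, although the Cy5 array of untreated polypoid replicate 1 read 64076 units, close to the ceiling. Treated minus untreated was -1.75 within session 2 and -1.18 within session 3, 1 mouse each. On the authors' deposited table the same difference was -1.47. Cdx1 differed by -1.07 ± 0.22 (95% interval -1.60 to -0.54, unadjusted p = 0.00261, adjusted p = 0.471), with -0.96 and -1.18 within those sessions. In inflamed tissue Cdx1 differed by -0.30 ± 0.22 (adjusted p = 0.975), and for Klf4 saturation leaves no order. The mean of the 10 epithelial markers was 3.49 and 3.75 in untreated and 3.29 and 3.02 in treated polypoid mice, so it was lower in the same mice. For the 6 never saturated it was 4.33 and 4.27 against 4.09 and 3.63. The part of these markers in the differences was not tested.

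Treated and untreated Elf3 values lay apart in both tissues, in opposite directions, as they did for 5.99% of all genes. Treated minus untreated was 0.76 ± 0.18 in inflamed tissue (95% interval 0.33 to 1.19, adjusted p = 0.975) and -0.52 ± 0.18 in polypoid tissue (95% interval -0.95 to -0.09, adjusted p = 0.615). Within sessions it was 0.72 in session 1 (inflamed), and -0.54 and -0.50 in sessions 2 and 3 (polypoid). Within each tissue the epithelial marker mean differed in the same direction as Elf3, at 3.45 and 3.24 in untreated and 3.70 and 3.71 in treated inflamed mice, beside the polypoid values above. The 6 markers never saturated gave 4.23 and 3.74 against 4.60 and 4.33 there. The part of these markers in the Elf3 pattern was not tested.

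Among the other factors, Sox9 differed by 0.49 ± 0.23 in polypoid tissue, where both treated mice were above both untreated ones (95% interval -0.08 to 1.06, adjusted p = 0.685), by 0.86 within session 2 and 0.12 within session 3, and by -0.16 ± 0.23 in inflamed tissue. Its second probe did not show this, with lower means in treated than in untreated polypoid mice (1.11 against 1.70). Over both tissues Cdx2 differed by -0.32 (95% interval -0.88 to 0.23), Gata6 by 0.26 (-0.31 to 0.83), Atoh1 by -0.09 (-0.32 to 0.14) and Hes1 by -0.08 (-0.30 to 0.15). Hnf4a differed by 0.43 ± 0.36 in inflamed and -0.45 ± 0.36 in polypoid tissue, which nearly cancel over both (-0.01, 95% interval -0.63 to 0.60), by 1.02 within session 1, and by -0.41 and -0.50 within sessions 2 and 3. Its interaction was not called (-0.88 ± 0.50). Klf5, at -0.11, had the widest interval (-1.30 to 1.08). Its dimmer second probe, which ordered the mice differently, gave larger values than any brightest probe, 1.47 ± 0.58 in inflamed and -1.89 ± 0.58 in polypoid tissue, with an interaction of -3.37 ± 0.82 (limma adjusted p = 0.985, 0.607 and 0.815 over 30166 probes).

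**Figure D4:**
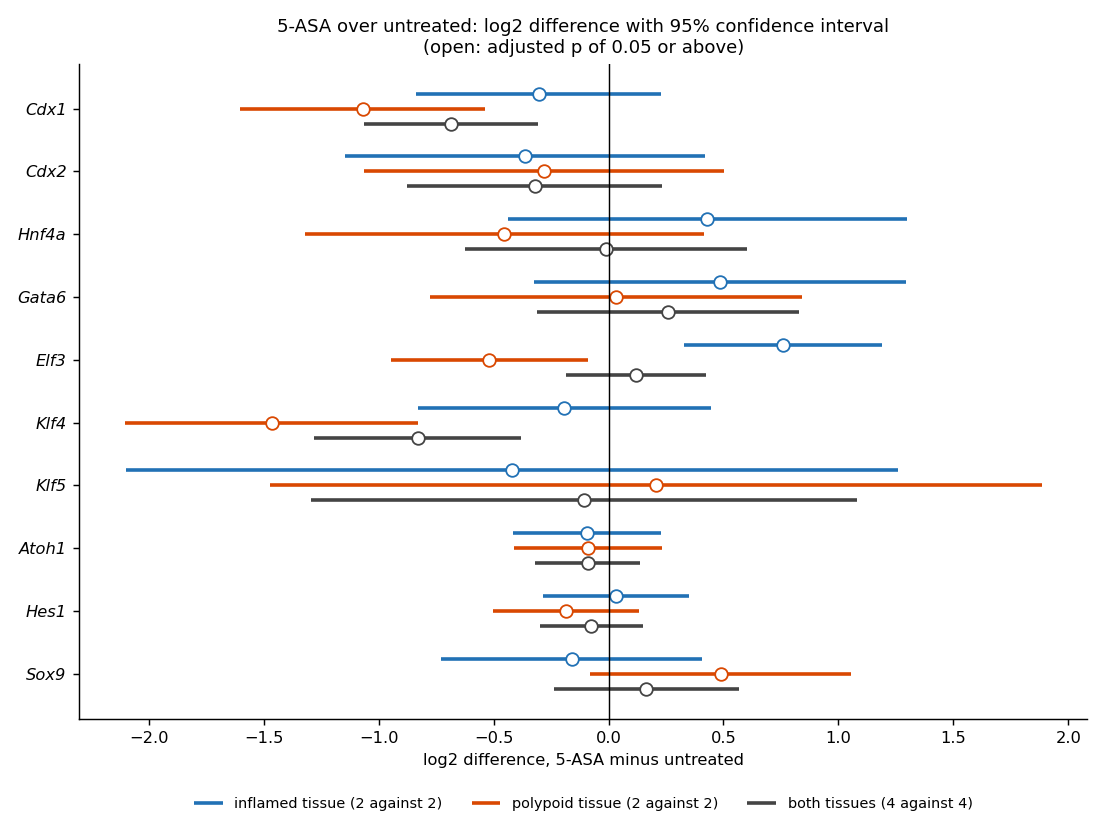
5-ASA minus untreated differences of the 10 genes (x axis: log2 difference; lines: 95% confidence intervals; blue, inflamed tissue; orange, polypoid tissue; black, both tissues; all points are open because none passed). Klf4 and Cdx1 lie at -1.47 and -1.07 in polypoid tissue and nearer 0 in inflamed tissue, and Elf3 lies at 0.76 in inflamed and -0.52 in polypoid tissue.

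The tissue by treatment interaction asks whether the treatment difference is the same in both tissues. It passed for no gene on the array in limma (smallest adjusted p 0.801), so the 10 factors stood at the 0% of all genes, with 3 at an unadjusted p under 0.05 (5.96% of all genes). These were Elf3 (-1.28 ± 0.25, unadjusted p = 0.00203, adjusted p = 0.801), Klf4 (-1.27 ± 0.37, unadjusted p = 0.0133) and Cdx1 (-0.77 ± 0.31, unadjusted p = 0.0475). Saturation in inflamed tissue bears on the Klf4 value.

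Likeness of pattern was measured as the root mean square (RMS) difference over the 8 mice after each gene's own mean was removed. Among the 10, Atoh1 and Hes1 were closest (RMS 0.13), both being flat, followed by Elf3 and Gata6 (0.29), Cdx1 and Klf4 (0.38) and Cdx1 and Cdx2 (0.40). The farthest pair was Klf4 and Sox9 (1.85). Over all 21301 genes, the nearest to Sox9 were Slc16a3, a lactate transporter, and Tgif2, a homeobox repressor (0.18 and 0.20). Ethe1 and Tgoln2 were nearest to Klf4 (both 0.25), Clstn1 and Pycrl to Cdx1 (0.23 each), and Ptpn22 and Treh, the brush border trehalase, to Cdx2 (0.10 and 0.12). Nearest to Hnf4a were BC006779 and Sppl2a (0.19 each), to Gata6 TC1464462 and Mtrf1l (0.08 and 0.09), to Elf3 Atp6v0b and Septin5 (0.13 and 0.14) and to Klf5 Pex16 and BC024868 (0.24 each). Flat genes were nearest to Atoh1 (LOC218695 and 4933405L10Rik) and Hes1 (Rrnad1 and Gm16367), at 0.03 each. All these values share the same mice, arrays and reference. Every distance from Klf4 includes inflamed values limited by saturation.

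Genes on which these factors are known to act were read in polypoid against inflamed tissue over both arms. They were chosen with earlier results of these data known, so counts of called genes only describe the lists. Of 31 measured genes of mature enterocytes, 8 fell and 0 rose, where 1.99% of all genes fell and 3.98% rose. The median difference was -0.47 against -0.02 over all genes. Pck1, an enzyme of gluconeogenesis, fell by 4.60 ± 0.78 on the log2 scale (adjusted p = 0.0289), and Slc26a3, the colonocyte chloride exchanger, fell by 3.85 ± 0.74 (0.0389). Car4, a carbonic anhydrase of the surface, fell by 3.21 ± 0.58 (0.0344). These falls were uneven between mice. Untreated polypoid replicate 1 read 5.15 for Pck1, 4.25 for Slc26a3 and 3.02 for Car4, near the lowest inflamed values of 6.03, 4.40 and 3.35. The other polypoid mice read 0.12 to 1.80, -0.04 to 0.88 and -0.16 to 0.40. Apob, of lipoprotein assembly, fell by 1.70 and Dpp4, a brush border peptidase, by 1.62 (0.0231 and 0.0235), although 1 other Apob probe read 0.13. The count of 8 became 3 when either untreated inflamed mouse was left out, 4 when untreated polypoid replicate 2 was, 1 when treated polypoid replicate 2 was, and 0 when treated polypoid replicate 1 or either treated inflamed mouse was.

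Of 13 crypt base genes linked to SOX9 that were measured, 7 rose and 1 fell (median 1.25), where 3.98% of all genes rose and 1.99% fell. This list, too, was chosen with earlier results of these data known. Lgr5, the stem cell receptor for R-spondin, rose by 3.97 ± 0.47 (adjusted p = 0.0131), and Axin2, the Wnt feedback inhibitor, by 3.48 ± 0.27 (0.00488). Mmp7, the matrilysin of Paneth cells, rose by 3.96 ± 0.23 (0.00348), Cd44, an adhesion receptor and Wnt target, by 1.95 ± 0.20 (0.00957), and Ccnd1, cyclin D1, by 1.25 ± 0.17 (0.0177). Smoc2 rose by 2.57 ± 0.38 (0.0209). Of the other Cd44 probes, 1 read 1.50 and 1 read -0.10. Ascl2, a stem cell factor driven by Wnt, was the gene that fell, by 0.53 ± 0.10 (0.0418). The 7 were 4 without treated inflamed replicate 1 and 4 without treated polypoid replicate 2, and Ascl2 was not called with any 1 animal left out. Mmp7 is also in the list of 14 secretory products, of which 6, the goblet products Tff3, Clca1 and Zg16 among them, were saturated mostly in inflamed tissue and cannot show their full change. Of the 8 never saturated, Mmp7 rose and the endocrine granule proteins Chga and Chgb fell (-2.73 ± 0.50 and -3.42 ± 0.65, adjusted p = 0.0346 and 0.0390). The median was -0.95 over these 8 and -0.70 over all 14. Chga and Chgb were not called when any 1 of the 4 inflamed mice or treated polypoid replicate 1 was left out. Untreated polypoid replicate 1 read 2.43 for Chga and 4.81 for Chgb, beside lowest inflamed values of 2.73 and 4.73. The other polypoid mice read 0.18 to 0.43 and -0.10 to 1.84.

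**Figure D5:**
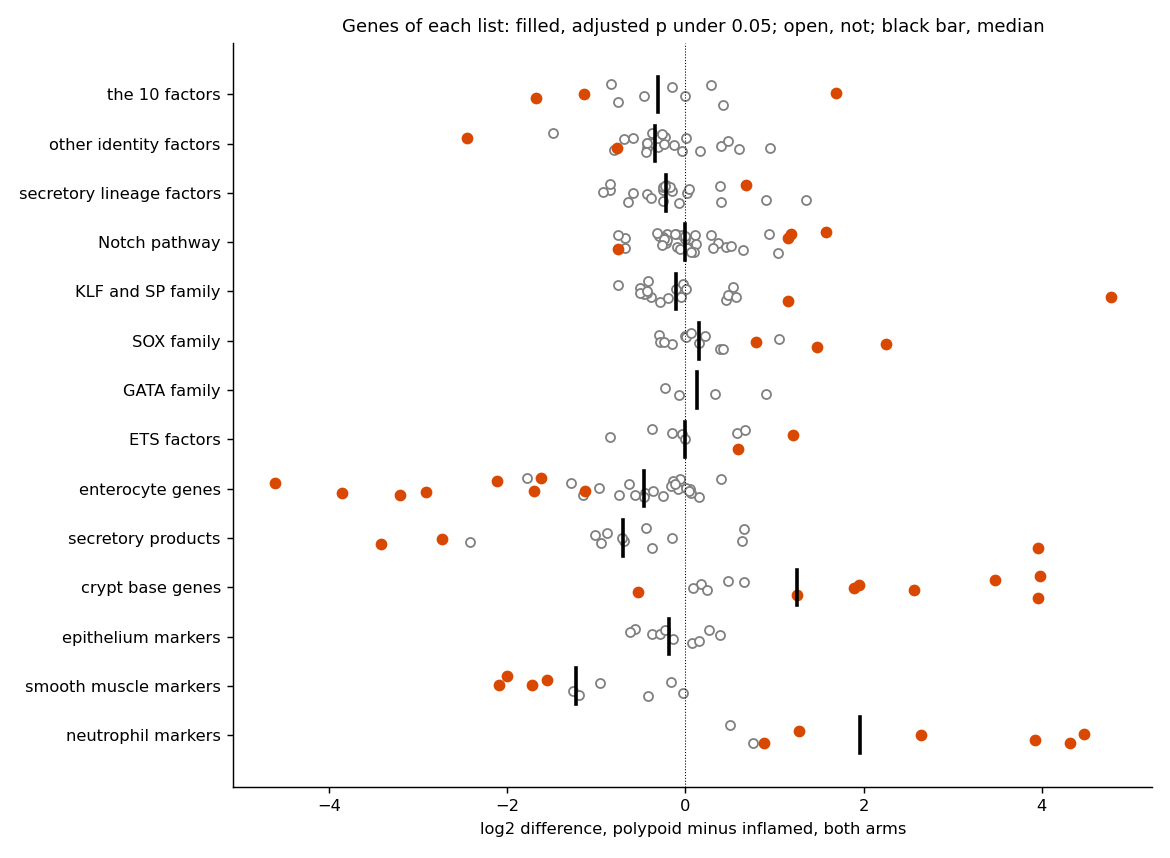
Polypoid minus inflamed differences of the measured genes of each list (x axis: log2 difference over both arms; filled, adjusted p under 0.05; open, not; black bars, medians; vertical scatter within a list has no meaning). Enterocyte genes have a median of -0.47 with 8 filled points to the left, crypt base genes a median of 1.25 with 7 to the right, and epithelial markers have no filled point.

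The factors' own families and partners were read against the 5.97% of all genes that were called in this comparison. Of 24 other intestinal identity factors, 2 fell and 0 rose: Nr5a2, a nuclear receptor of crypt cells, by 2.45 ± 0.40 (adjusted p = 0.0255), and Vdr, the vitamin D receptor, by 0.77 ± 0.13 (0.0270). With 1 animal left out this count was 0 in 6 of the 8 cases, 4 without untreated polypoid replicate 1 and 1 without untreated polypoid replicate 2. Of 22 secretory lineage factors, Isl1, an endocrine factor, rose by 0.67 ± 0.11 (0.0248), and of 36 Notch pathway genes 3 rose and 1 fell. These were the receptor Notch1 (1.18 ± 0.19, 0.0237), Hes6, which opposes HES1 (1.57 ± 0.16, 0.00888), the corepressor Tle1 (1.15 ± 0.22, 0.0400) and, lower, the Notch antagonist Numb (-0.76 ± 0.11, 0.0217). Tle1 and Numb had 3 kept probes each. With the mean over the probes of each gene, 2 of the list rose and 0 fell, so Numb was not called. The 3 rising Notch genes were 1 without untreated inflamed replicate 2, either treated inflamed mouse or treated polypoid replicate 1. Isl1 was called without untreated inflamed replicate 1 or treated polypoid replicate 1 and in no other such setting.

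Of 21 KLF and SP genes, 2 rose: Sp5, a Wnt target that acts as a repressor, by 4.77 ± 0.43 (adjusted p = 0.00663), and Sp6 by 1.15 ± 0.11 (0.00809), of which a second probe read -0.06. Of 15 SOX genes, 3 rose: Sox17 (2.25 ± 0.28, 0.0138), Sox21 (1.48 ± 0.11, 0.00488) and Sox7 (0.80 ± 0.16, 0.0421). The other kept probes of Sox17 and Sox21 lay between -0.10 and -0.01, so these rises rest on 1 probe each. The 3 SOX calls were 1 without either treated inflamed mouse or treated polypoid replicate 2. Of 9 ETS factors, Ets2 and Etv5 rose by 1.21 ± 0.21 and 0.59 ± 0.09 (0.0310 and 0.0209), and with 1 animal left out 0 passed in 5 of the 8 cases and 1 without untreated polypoid replicate 1. None of 4 GATA genes passed. Gata2 had 0.90 ± 0.24 (0.0900), and Gata4 had -0.23 ± 0.10 (0.214). None of these lists held a call in any 5-ASA comparison. There, over both tissues, Sox17 had the smallest p of the SOX list in limma (1.44, limma adjusted p = 0.770), again from 1 of its 3 kept probes.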

How the data were processed

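Per the file headers, the deposited scanner files hold mean spot and median background intensity for each channel, read by Agilent Feature Extraction 9.1.1.1, with processed signals in intensity units and the log10 of red over green. The authors' deposited table holds log2 ratios of sample over reference with dye swaps turned; on each array it correlated at r of 0.996 or above with the values computed here. Its column medians lay between -0.01 and 0.03. Its background correction and normalization are not given in the sources used here.

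The software was limma 3.58.1 in R 4.3.3. Steps were normexp background correction (offset 50), loess within arrays, outlier-flagged spots left out, swapped arrays turned, and a fit of animal plus dye over 15 arrays to 1 value for each of 8 mice. Treated inflamed replicate 2 had 1 array. Median sample intensity per array was 148.6 to 257.2 over a background of 41 to 63, and 57.4% to 90.9% of spots were well above background. Intensities carry no count of molecules, and the number of mice, 2 in each group, limits the precision. Per the labels, each replicate is a separate animal.

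A probe had to be well above background in the sample channel on all arrays of 1 or more groups, and the brightest probe stood for a gene (21301 genes). Names came from accessions and symbols through RefSeq (GRCm38.p6, names only). The 4 groups were fitted together in limma with 7 contrasts. Named genes were all 10 factors with their other probes, the 2 genes nearest each in pattern, and up to 6 called genes of each list, or the 2 with the smallest p. A result that falls under this rule is not reported here. The members and gene lists were chosen with earlier results of these data known. The script was tested on simulated data. Replicate numbers were not taken to pair the mice: deviations of same-numbered mice correlated at 0.04 to 0.36, not all above 0.1.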

Additional observations from a re-analysis of the deposited data

Results flagged for a closer look

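Elf3 had opposite treatment differences in the 2 tissues, with no overlap in either. Treated mice were higher by 0.76 in inflamed tissue and differed by -0.52 in polypoid tissue. The interaction was -1.28 ± 0.25 SE (limma unadjusted p = 0.00203, adjusted p = 0.801), so it did not pass over all genes, and 5.99% of all genes lay apart in opposite directions in the same way.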

How the results depend on the processing

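Under 19 other settings (other background corrections, scalings, filters, blocks and animals left out), the 20 differences of single factors (10 in each of 2 comparisons, Klf4 lacking 1 alternative) kept their direction and side of the threshold in 350 cases. In 10 a call was lost, in 2 one was gained and in 16 the sign turned, all in genes that had not passed. The quantile scaling of brightness, counted among the 19, left every ratio as it was by construction, so its cases among the 350 could not differ.

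The count of called factors in polypoid against inflamed tissue was 0 with the scan session as a block. There Cdx1 was -0.88, Klf4 -2.03 and Sox9 1.57, with 1 residual degree of freedom. With 1 animal left out it ranged from 0 to 3. In treated mice the count of 3 was 1 with the deposited table (Sox9, as Klf4 has no value there), 0 with the session block and 0 to 3 with 1 animal left out. No call was gained or lost in untreated mice or for 5-ASA.

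The replicate block gave 4 called factors in both comparisons, adding Cdx2 over both arms (-0.84, adjusted p = 0.0142) and in treated mice (-0.80, adjusted p = 0.0403), and changed no other call among the 10.

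Signs that turned: Elf3 was -0.017 (tissue) and -0.077 (5-ASA) with processed signals; Hes1 (tissue) was 0.14 with the session block, 0.017 with the spread of arrays made equal and -0.037 to 0.031 with 1 animal left out. Hnf4a (5-ASA) was 0.28 with the session block, 0.125 with equal spread, and -0.25 to 0.23 with 1 animal left out. Klf5 (5-ASA) was -0.53 to 0.31 with 1 animal left out, and 0.19 with equal spread, where its tissue difference was 0.14. Of other probes, Klf5 gave 0.38 (tissue), Gata6 -0.043 and Sox9 -0.14 (5-ASA). Equal spread, separate probes and lists without saturated probes were chosen after seeing the data, and equal spread lost Cdx1 (-0.93). The causes were not tested. Dim spots of Atoh1 and Hes1 limit what their ratios can show.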
